A study of Mus musculus with 6 samples.

Results

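The chemokines and chemokine receptors measured in infarcted mouse left ventricles are described here gene by gene. Members were taken by symbol from the deposited gene table: CC, CXC, CX3C and XC ligands, their numbered receptors, the atypical receptors of the Ackr family and *Ccrl2*. The rule found 50 of the 17556 genes listed, of which 28 are ligands, 17 are signalling receptors and 5 are atypical receptors, with *Ccrl2* counted among the last. It does not take in *Pf4*, *Ppbp*, *Ccl21a* and *Ccl27a*, which are also chemokines and are given with the rest of the pathway.

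Bulk RNA sequencing was done on left ventricles of 3 Cre positive and 3 Cre negative mice, born to the same crosses and aged 6 to 10 weeks. All 6 mice were *Yap* fl/fl and *Wwtr1* fl/+, all had the left anterior descending artery tied off permanently, all ate tamoxifen citrate chow from the time of surgery, and all ventricles were taken 4 days post injury (dpi). The Cre positive mice also carried one copy of MerCreMer, a Cre that tamoxifen switches on, in the endogenous periostin locus, which is active in myofibroblasts, and the Cre negative mice had wild type periostin alleles. There was no uninjured ventricle and no Cre positive mouse without floxed alleles, so that loss of Yap and Wwtr1, the Cre itself and the changed periostin allele cannot be told apart, and no value below is a response to injury. The labels do not give the sex of the mice.

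Chemokines are small secreted proteins that attract leukocytes by binding receptors coupled to G proteins on their surface. CXC ligands of the Cxcr2 group call in neutrophils, ligands of Ccr2 call in monocytes, and other ligands guide T cells, NK cells, eosinophils, dendritic cells and B cells. Atypical receptors bind chemokines without the usual signal and remove or hold them. In the infarcted heart neutrophils arrive first and inflammatory monocytes follow, while macrophages, fibroblasts and endothelium are among the sources of the ligands.

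Most of these genes stand in groups in the genome. On the mouse assembly GRCm38.p6, the build named in the submitters' processing notes, 28 of the 50 members lay within 100 kb of another member, in 9 clusters. *Ccl2*, *Ccl7*, *Ccl11*, *Ccl12* and *Ccl8* lay together at chr11:82035577-82116799, and *Ccl5*, *Ccl9*, *Ccl6*, *Ccl3* and *Ccl4* at chr11:83525778-83664683. The ligands of neutrophils lay as pairs on chromosome 5, *Cxcl5* with *Cxcl3* at chr5:90759298-90788093 and *Cxcl1* with *Cxcl2* at chr5:90891245-90905938.

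The 250 bases before the start site are given for 6 members, because *Cxcl1*, *Cxcl2* and *Cxcl3* are closely related genes whose counts differed in these ventricles, because *Ccl12* and *Ccr1* separated the genotypes, and because *Cxcl13* had the widest range among ligands. Sequences are those of RefSeq on GRCm38.p6, printed 5′ to 3′ on the strand of the gene. Capitals mark matches on either strand to the kappaB motif, bound by NF-kappaB, to the AP-1 motif TGANTCA, or to GGAATG, the core bound by TEAD factors, the DNA binding partners of Yap and Wwtr1.

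Cxcl1 (chr5:90890995-90891244, plus strand): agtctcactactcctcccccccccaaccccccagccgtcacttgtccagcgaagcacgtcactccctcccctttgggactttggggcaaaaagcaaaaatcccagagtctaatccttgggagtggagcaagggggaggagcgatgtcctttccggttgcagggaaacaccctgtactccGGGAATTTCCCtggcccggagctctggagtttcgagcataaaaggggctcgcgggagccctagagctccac

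Cxcl2 (chr5:90903649-90903898, plus strand): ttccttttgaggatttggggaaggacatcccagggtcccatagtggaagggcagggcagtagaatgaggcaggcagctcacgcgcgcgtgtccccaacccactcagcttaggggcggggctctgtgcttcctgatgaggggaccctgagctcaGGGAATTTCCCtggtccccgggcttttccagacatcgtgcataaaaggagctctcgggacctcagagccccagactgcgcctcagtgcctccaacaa

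Cxcl3 (chr5:90785851-90786100, plus strand): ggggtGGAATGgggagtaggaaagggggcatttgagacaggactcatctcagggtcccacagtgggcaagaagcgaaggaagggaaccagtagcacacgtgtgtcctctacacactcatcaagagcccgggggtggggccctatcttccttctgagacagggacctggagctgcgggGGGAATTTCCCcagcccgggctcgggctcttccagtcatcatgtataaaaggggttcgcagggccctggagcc

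Ccl12 (chr11:82101595-82101844, plus strand): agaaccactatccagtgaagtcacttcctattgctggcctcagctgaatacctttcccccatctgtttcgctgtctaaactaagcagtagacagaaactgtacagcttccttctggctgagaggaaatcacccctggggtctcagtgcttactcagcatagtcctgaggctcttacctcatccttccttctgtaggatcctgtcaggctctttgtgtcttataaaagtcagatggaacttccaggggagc

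Ccr1 (chr9:123968693-123968942, minus strand): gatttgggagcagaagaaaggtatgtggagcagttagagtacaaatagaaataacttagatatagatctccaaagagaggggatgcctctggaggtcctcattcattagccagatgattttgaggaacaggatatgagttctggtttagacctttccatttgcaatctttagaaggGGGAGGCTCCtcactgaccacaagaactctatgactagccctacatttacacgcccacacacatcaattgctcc

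Cxcl13 (chr5:95956689-95956938, plus strand): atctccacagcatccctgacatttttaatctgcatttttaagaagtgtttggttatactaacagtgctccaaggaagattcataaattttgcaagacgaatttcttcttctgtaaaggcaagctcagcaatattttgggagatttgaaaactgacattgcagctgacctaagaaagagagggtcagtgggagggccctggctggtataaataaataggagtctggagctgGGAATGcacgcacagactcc

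The same run of letters matching kappaB stood 71 bases before the start of *Cxcl1*, 97 before *Cxcl2* and 73 before *Cxcl3*, and another kappaB match stood 74 bases before *Ccr1*. GGAATG stood 245 bases before *Cxcl3* and 20 bases before *Cxcl13*, no AP-1 match was found in these 6 windows, and none of the 3 motifs was found in the window of *Ccl12*. No match overlapped a match to another motif. RefSeq windows were matched for 37 member genes, with 41 start sites, and *Cxcl5*, *Ccl2* and *Ccl7* were not among them. The kappaB motif was in 10 of these 41 windows (24.4%) and in 7.25% of 32851 windows of the same length over all genes. TGANTCA was in 4 of the 41 (9.76%) and 6.75% of all, and GGAATG was in 7 of the 41 (17.1%) and 12.6% of all. Member windows share ancestry, and a match is letters only, not a bound site.

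The estimated counts summed to between 13177888 and 14514799 in the Cre negative and between 14202093 and 14827579 in the Cre positive ventricles, and a count of 0 allows up to 3 counts, or 0.202 to 0.228 CPM, a limit that covers counting error only. A normalized count below is a count scaled by edgeR's TMM method to the mean library of 14264187 counts and is used to compare ventricles. TPM, which corrects for gene length, is used to compare genes. On the TPM scale, with a pseudocount of 1, the median gene was 0.11 log2 units higher in Cre positive ventricles, against 0.006 in normalized counts, and summed TPM is to be read beside that shift. Cre negative replicate 1 stood apart from the other ventricles along the first principal component of all genes, which held 45.2% of the variance. Its summed TPM of 10 neutrophil markers was 480, against 55.5 to 178 in the other ventricles. Its 6 cardiomyocyte markers summed to 43423 against 30142 to 33299, with the Cre positive ventricles below all Cre negative ones. Its 7 fibroblast markers summed to 4141 against 6249 to 7208, mostly from *Col1a1* and *Col3a1*. Of these markers *Tcf21*, *Lum* and *Postn* were also lowest there. *Dcn* was highest there, at 13379 normalized counts against 8930 to 12258, and *Pdgfra*, at 1260, was inside the range of the others. The granule and surface genes *Ngp* and *Ly6g* were at 0 in 1 and 4 of the 6 ventricles. Because these are whole ventricles, fewer cells of a type and less RNA per cell cannot be told apart. *Yap1* had normalized counts of 1547, 1473 and 1419 in the Cre negative and 1615, 1436 and 1474 in the Cre positive ventricles, and *Wwtr1* had 1616, 1463 and 1604 against 1614, 1559 and 1661. Such a gene total covers every cell and exon, so it does not check the deletion in myofibroblasts.

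Of the 50 members, 41 passed edgeR's filter on low counts and were tested, 25 ligands and 16 receptors. No member passed an adjusted p of 0.05 in edgeR's quasi-likelihood test, with a smallest adjusted p of 0.714 among them, while 1 of 13817 genes did (0.00724%), the interferon induced GTPase *Gbp2b*. Without adjustment, 3 of the 41 members had p under 0.05 (7.32%), *Cxcl5*, *Ccl12* and *Ccr1*, all higher in Cre positive ventricles, against 5.83% of all genes in either direction, 2.85% higher and 2.98% lower. In 4 members, these 3 and *Cxcl3*, all Cre positive values lay above all Cre negative values (9.76%, against 7.55% of all genes), and in 0 members they all lay below (6.85% of all genes, or 14.4% with both directions). The other 37 tested members overlapped between genotypes. Some marker sums also lay apart by genotype. In TPM, the 6 cardiomyocyte markers were at 32909 to 43423 in the Cre negative and 30142 to 32590 in the Cre positive ventricles, with 0 of 6 at an unadjusted p under 0.05. The 4 lymphatic endothelial markers were at 69.1 to 76.5 and 87.2 to 93.5, with *Pdpn* and *Flt4* at an unadjusted p under 0.05, both higher, while *Prox1* had a log2 fold change of −0.22. *Pdpn* alone held means of 43.8 and 58.1 TPM of these sums. The 5 dendritic cell and 5 NK cell markers were at 11.8 to 17.0 and 2.23 to 6.41 in the Cre negative and 17.1 to 21.8 and 6.62 to 13.8 in the Cre positive ventricles. The groups nearly met, at 17.03 and 17.05 TPM for dendritic cell and 6.41 and 6.62 TPM for NK cell markers. These gaps are to be read beside the shift of TPM given above. Of the 5 dendritic cell and 2 NK cell markers tested, 0 had an unadjusted p under 0.05. The 5 mesothelial markers, chosen after the values were seen, overlapped, at 27.8 to 118 and 80.7 to 164, with all 5 log2 fold changes above 0. The part of these cells in the ligand differences was not tested. DESeq2 also called no member after adjustment and gave 2 of 50 members an unadjusted p under 0.05, against 4.78% of the 17556 genes it fitted.

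**Figure D1:**
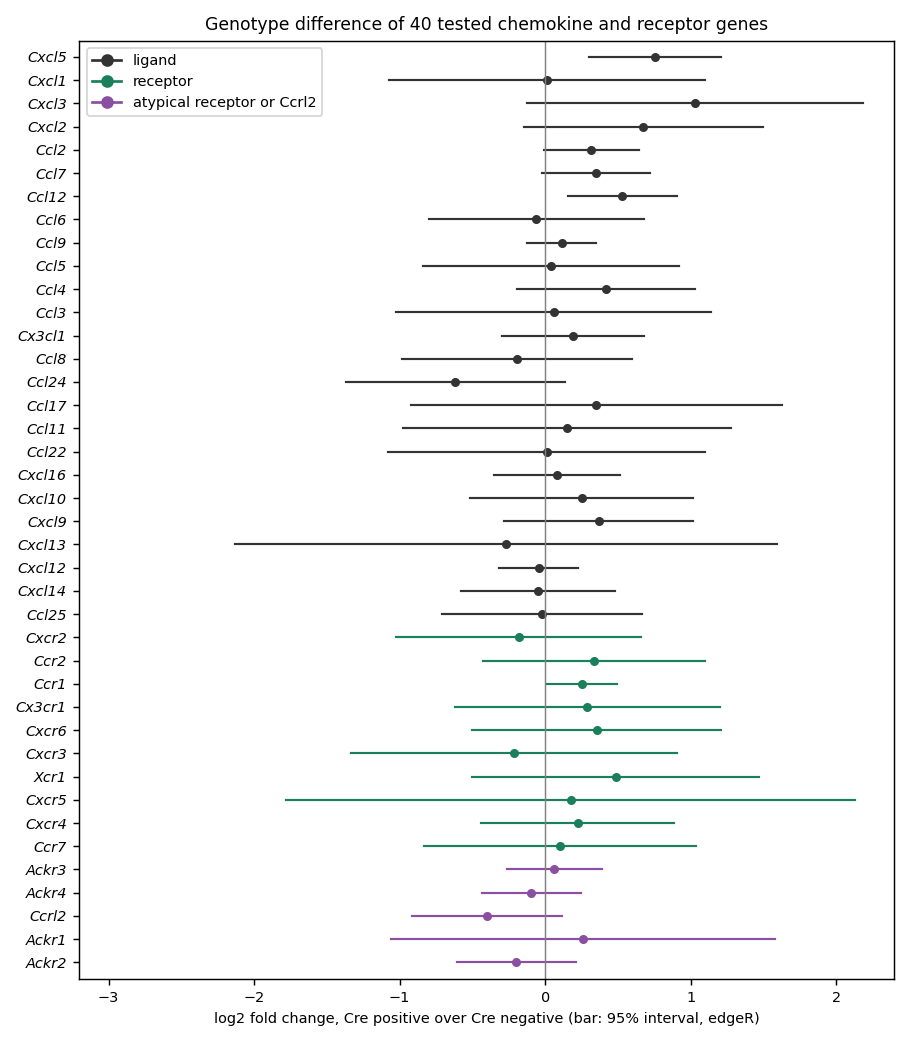
The plot of genotype differences gives, for each of 40 tested members, the log2 fold change of Cre positive over Cre negative ventricles as a point and its 95% interval from edgeR as a line, with ligands in black, receptors in green and atypical receptors in purple. The intervals of *Cxcl5*, *Ccl12* and *Ccr1* lie above 0 and all others include 0.

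Ligands of neutrophils had the highest median difference of the ligand groups. All 4 (*Cxcl1*, *Cxcl2*, *Cxcl3* and *Cxcl5*, which act through *Cxcr2*) had a log2 fold change above 0, with a median of 0.71, beside 0.006 over all genes tested. Together they had 190.4, 157 and 175 normalized counts in the Cre negative and 342, 224 and 222 in the Cre positive ventricles, without overlap. *Cxcl5* held the largest part of that sum in every ventricle and did not overlap by itself, whereas *Cxcl1*, the next largest, had a log2 fold change of 0.01. In level the 4 ligands were minor, at 15.7 to 35.3 TPM per ventricle beside the 844 to 1123 TPM of all ligands of the symbol rule. The group median is a description of 4 genes that lie close together and was not tested.

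*Cxcl5* (gene number 20311, chr5:90759298-90761625), a ligand that epithelial and stromal cells make on inflammation, had normalized counts of 92.9, 104 and 104 in the Cre negative and 216, 156 and 137 in the Cre positive ventricles. The lowest Cre positive ventricle was above the highest Cre negative one, and the 3 Cre positive ventricles differed more among themselves than the Cre negative ones did. The means were 100.3 ± 6.4 (SD, n = 3) and 169.5 ± 41.3 (SD, n = 3). In the edgeR fit the log2 fold change was 0.76 (standard error 0.20, 95% interval 0.30 to 1.21), a 1.69-fold difference, with an unadjusted p of 0.00526 and an adjusted p of 0.714. The adjusted p ranged from 0.509 to 0.958 over the other settings, so the difference did not pass the test in any of them. By exact permutation of the 6 normalized counts, two-sided, p was 0.1, the smallest that 3 ventricles against 3 allow.

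*Cxcl3* (gene number 330122), of the same Cxcr2 family, had normalized counts of 3.53, 15.7 and 11.7 in the Cre negative and 27.9, 20.3 and 16.6 in the Cre positive ventricles. The groups were apart by less than 1 normalized count, and Cre negative replicate 1 was the lowest. The log2 fold change was 1.03 (standard error 0.50) with an adjusted p of 0.714 from edgeR, and 0.65 without that ventricle. The other two ligands of the group fall outside the rule for per-ventricle values and were chosen after their values were seen. *Cxcl2* had 17.6, 10.8 and 11.7 normalized counts against 25.9, 21.2 and 16.6, with a log2 fold change of 0.68 (standard error 0.35). *Cxcl1* had 76.4, 26.5 and 47.6 against 72.6, 26.8 and 51.7, with a log2 fold change of 0.01 (standard error 0.47). The ventricles of *Cxcl1* thus spread over 2.88-fold with a similar range in both genotypes, and *Cxcl1*, *Cxcl2* and *Cxcl3* shared the kappaB letters shown above but not the order of their ventricles.

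The neutrophil receptor overlapped between genotypes. *Cxcr2* was expressed at a mean of 1.8 TPM, between 23.3 and 62.3 normalized counts per ventricle, and its log2 fold change was −0.18 (standard error 0.36). *Cxcr1* had at most 4 estimated counts in any ventricle and did not pass the filter. The summed neutrophil markers were 480, 94.8 and 55.5 TPM in the Cre negative and 178, 75.2 and 160 TPM in the Cre positive ventricles, of which 8 of 10 genes were tested, 2 with a log2 fold change above 0 and 0 with an unadjusted p under 0.05. The ventricle with the highest neutrophil marker sum, Cre negative replicate 1, was the lowest of the 6 for *Cxcl5* and *Cxcl3* and the highest for *Cxcl1* and *Cxcr2*. Not every marker was highest there. *Csf3r* had its lowest value in that ventricle, 286 normalized counts against 352 to 494 elsewhere, and *Trem1* was highest in Cre positive replicate 1. The part of neutrophil number in these values was not tested.

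**Figure D2:**
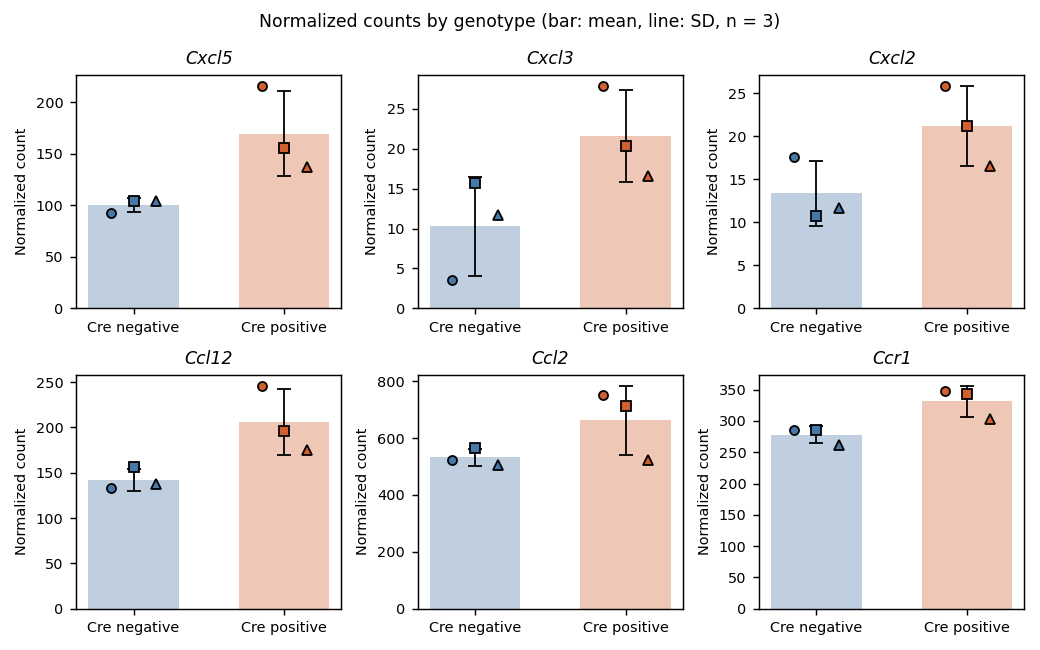
The plot of normalized counts by genotype shows *Cxcl5*, *Cxcl3*, *Cxcl2*, *Ccl12*, *Ccl2* and *Ccr1*, each ventricle as a marker, the mean of 3 as a bar from 0 and the SD as a line. The Cre positive ventricles of *Cxcl5*, *Cxcl3*, *Ccl12* and *Ccr1* lie above all Cre negative ones, whereas *Cxcl2* and *Ccl2* overlap.

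Monocyte ligands were more abundant than the neutrophil ligands. *Ccl2*, *Ccl7* and *Ccl12* all signal through *Ccr2* on inflammatory monocytes and lie in one cluster on chromosome 11. Together they had 997, 1157 and 1075 normalized counts in the Cre negative and 1501, 1519 and 1123 in the Cre positive ventricles, which overlapped through Cre positive replicate 3, and their log2 fold changes in normalized counts were 0.32, 0.35 and 0.53.

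*Ccl12* (gene number 20293, chr11:82101845-82103399) had normalized counts of 133, 156 and 138 in the Cre negative and 246, 197 and 175 in the Cre positive ventricles. The groups did not overlap, with means of 142 ± 12.2 (SD, n = 3) and 206 ± 36.4 (SD, n = 3). The log2 fold change was 0.53 (standard error 0.16, 95% interval 0.15 to 0.91), a 1.44-fold difference with an unadjusted p of 0.0119 and an adjusted p of 0.714 from edgeR, and p was 0.1 by the exact permutation test used for *Cxcl5*, the smallest possible here. *Ccl2*, the chief monocyte attractant, had normalized counts of 523, 565 and 507 against 750.4, 712 and 524, where Cre positive replicate 3 lay among the Cre negative ventricles. Its log2 fold change was 0.32 (standard error 0.14). *Ccl7* had 341, 436 and 430.2 against 505, 611 and 424, again with Cre positive replicate 3 inside the Cre negative range, and a log2 fold change of 0.35 (standard error 0.16). Their unadjusted p-values from edgeR were 0.0559 and 0.06 and neither passed after adjustment.

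Their receptor *Ccr2* had normalized counts of 227, 561 and 570.0 in the Cre negative and 472, 712 and 535 in the Cre positive ventricles. Cre negative replicate 1 was far below every other ventricle and the rest overlapped. The log2 fold change was 0.34 (standard error 0.33) with all ventricles and 0.01 without Cre negative replicate 1. The 6 monocyte markers summed to 156, 265 and 144 TPM in the Cre negative and 237, 261 and 201 TPM in the Cre positive ventricles, with 1 of 6 at an unadjusted p under 0.05, in the higher direction. Their part in the monocyte ligands and in *Ccr2* was not tested.

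Other inflammatory CC ligands, several of which act through Ccr1, draw monocytes, macrophages and activated T cells. *Ccl6* had the highest mean level of the 28 ligands of the symbol rule, 194 TPM, or 14.1% to 29% of their summed TPM in a ventricle. *Pf4*, a platelet chemokine outside that rule, had a mean of 235 TPM. The normalized counts of *Ccl6* were 3049, 1894 and 1439 in the Cre negative and 2692, 1365 and 2063 in the Cre positive ventricles, a spread of 2.23-fold that ran across both genotypes (log2 fold change −0.06, standard error 0.32, and 0.08 with TPM values). *Ccl9*, another Ccr1 ligand of myeloid cells, with a mean of 58.0 TPM, was steadier, with normalized counts of 1282, 1365 and 1188 against 1530, 1270.1 and 1349. Its log2 fold change was 0.11 (standard error 0.10) and the groups overlapped.

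*Ccl3*, a product of activated macrophages, had normalized counts of 20.0, 87.3 and 44.7 in the Cre negative and 43.8, 60.0 and 55.6 in the Cre positive ventricles, so that the Cre negative ventricles held both the lowest and the highest value. Its log2 fold change was 0.06 (standard error 0.46). *Ccl4* and *Ccl5*, which draw activated T cells and macrophages, had log2 fold changes of 0.42 and 0.04 and ranged from 42.7 to 81.6 and from 24.7 to 65.7 normalized counts over the 6 ventricles. Of the 5 ligands of this group, 4 had a log2 fold change above 0, with a median of 0.06.

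*Ccr1* (gene number 12768, chr9:123962126-123968692), the receptor of *Ccl6*, *Ccl9*, *Ccl3* and *Ccl5*, was the only receptor whose groups did not overlap. It had 286, 285 and 262 normalized counts in the Cre negative and 347, 343 and 303 in the Cre positive ventricles, with means of 278 ± 13.5 (SD, n = 3) and 331 ± 24.7 (SD, n = 3). The log2 fold change was 0.25 (standard error 0.10, 95% interval 0.01 to 0.50), a 1.19-fold difference with an unadjusted p of 0.0427 and an adjusted p of 0.714 from edgeR. Cre negative replicate 1, the lowest ventricle for *Ccr2* and *Cx3cr1*, was level with Cre negative replicate 2 for *Ccr1*.

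*Cx3cl1*, a ligand tethered to endothelial and other membranes, pairs with *Cx3cr1* on resident macrophages and patrolling monocytes. *Cx3cl1* had normalized counts of 397, 650.4 and 694 in the Cre negative and 639.9, 769 and 584 in the Cre positive ventricles. *Cx3cr1* had 177, 469 and 644 against 436, 523 and 625. In both genes Cre negative replicate 1 was the lowest of the 6 and the other 5 overlapped, and the log2 fold changes were 0.19 (standard error 0.21) and 0.29 (standard error 0.39). Without that ventricle they were −0.02 and −0.08. The 10 macrophage markers summed to 2260 TPM in Cre negative replicate 1 and to between 2730 and 3440 TPM in the other ventricles, and their part in these values was not tested.

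Ligands of eosinophils and of type 2 T cells had differences of both signs. *Ccl8*, the most abundant of them with a mean of 92.6 TPM, had normalized counts of 335, 439.5 and 209.8 in the Cre negative and 292, 174 and 396 in the Cre positive ventricles (log2 fold change −0.19, standard error 0.34). *Ccl17*, a ligand of Ccr4 made by dendritic cells, had only 3.53, 7.85 and 17.5 normalized counts against 13.9, 10.2 and 13.7, so its ratio of 4.96 between the highest and the lowest ventricle rests on few counts. The eotaxins *Ccl24* and *Ccl11* had log2 fold changes of −0.62 (standard error 0.32) and 0.15 (standard error 0.48). *Ccl24*, with means of 57.3 in the Cre negative and 37.3 in the Cre positive ventricles, had the most negative log2 fold change of the members but overlapped. *Ccl22* ranged from 5.88 to 14.7 normalized counts with a log2 fold change of 0.01. The receptors of these cells among the members, *Ccr3* and *Ccr4*, did not pass the filter, with at most 5 and 1 estimated counts in a ventricle. They were not matched here to *Ccl8*.

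Ligands of activated T cells and NK cells overlapped between genotypes. *Cxcl16*, a membrane bound ligand of *Cxcr6* that macrophages make, had a mean of 75.1 TPM and normalized counts of 845, 1299 and 1436 in the Cre negative and 1155, 1263 and 1375 in the Cre positive ventricles. *Cxcl10*, which interferon induces and which acts through *Cxcr3*, had 165, 284 and 119 against 224, 288 and 165. *Cxcl9*, its interferon gamma induced partner, ranged from 54.1 to 126. The 3 log2 fold changes were 0.08, 0.25 and 0.37, each smaller than 2 standard errors. *Cxcr6* had 35.3, 44.1 and 91.3 normalized counts against 79.6, 83.1 and 56.6, where both groups again overlapped (log2 fold change 0.35, standard error 0.37). *Cxcr3* ranged from 8.23 to 28.4 normalized counts, with a log2 fold change of −0.22, and *Xcr1*, the receptor of cross-presenting dendritic cells, from 7.05 to 19.9, with 0.49. *Xcl1*, the ligand of *Xcr1*, had at most 4 estimated counts in a ventricle and did not pass the filter. The T cell and NK cell markers were sparse, at 3.93 to 18.6 and 2.23 to 13.8 TPM as sums of 7 and 5 genes.

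*Cxcl13* (gene number 55985), which draws B cells through *Cxcr5*, varied more between ventricles than any other ligand, and not by genotype. It had normalized counts of 239, 265 and 36.9 in the Cre negative and 206, 28.6 and 214 in the Cre positive ventricles. Cre negative replicate 3 and Cre positive replicate 2 were low and the other 4 were high, a ratio of 9.26 between the highest and the lowest. *Cxcr5* was low in the same ventricles, with 15.3, 34.3 and 8.74 normalized counts in the Cre negative and 13.9, 3.69 and 48.8 in the Cre positive ventricles, a ratio of 13.2. With a within-group spread of this size the log2 fold changes were −0.27 (standard error 0.80) and 0.17 (standard error 0.84), with 95% intervals of −2.13 to 1.59 and −1.78 to 2.13.

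The same pair of ventricles held the 2 lowest values of 9 of the 41 members (22%), against 7.47% of all genes. These were *Cxcl13*, *Cxcr5*, *Ccl6*, *Ccl8*, *Ccl9*, *Ccl11*, *Ackr1*, *Ackr3* and *Ccrl2*. *Ackr1*, the atypical receptor of venular endothelium, had normalized counts of 32.9, 60.8 and 11.7 in the Cre negative and 52.7, 23.1 and 50.8 in the Cre positive ventricles, with a log2 fold change of 0.26 (standard error 0.57). Summed markers of some other cells had the same 2 lowest ventricles, whereas those of others did not. The macrophage sum was highest in Cre negative replicate 3, at 3440 TPM, and the dendritic cell sum in Cre positive replicate 2, at 21.8 TPM. The B cell markers *Cd79a*, *Cd79b* and *Ms4a1* summed to 12.4, 37.2 and 8.79 TPM in the Cre negative and 18.6, 6.51 and 53.5 TPM in the Cre positive ventricles. A sum of 5 adipocyte markers, chosen after the values were seen, was 98.4, 81.7 and 13.5 against 89.3, 9.68 and 65.7 TPM, and the leptin gene in it was at 0 in some ventricles. The same 2 ventricles were also the lowest for the sum of the neutrophil markers, given above, and for that of the 5 eosinophil and mast cell markers, at 16.2, 10.4 and 6.73 against 17.4, 5.65 and 10.6 TPM. *Tpsb2* held the largest part of the latter sum, whereas *Siglecf*, in the same list, was highest in these 2 ventricles, at 0.45 and 0.78 TPM. The pair of ventricles was picked from the data, and the part of any of these cells in these members was not tested.

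**Figure D3:**
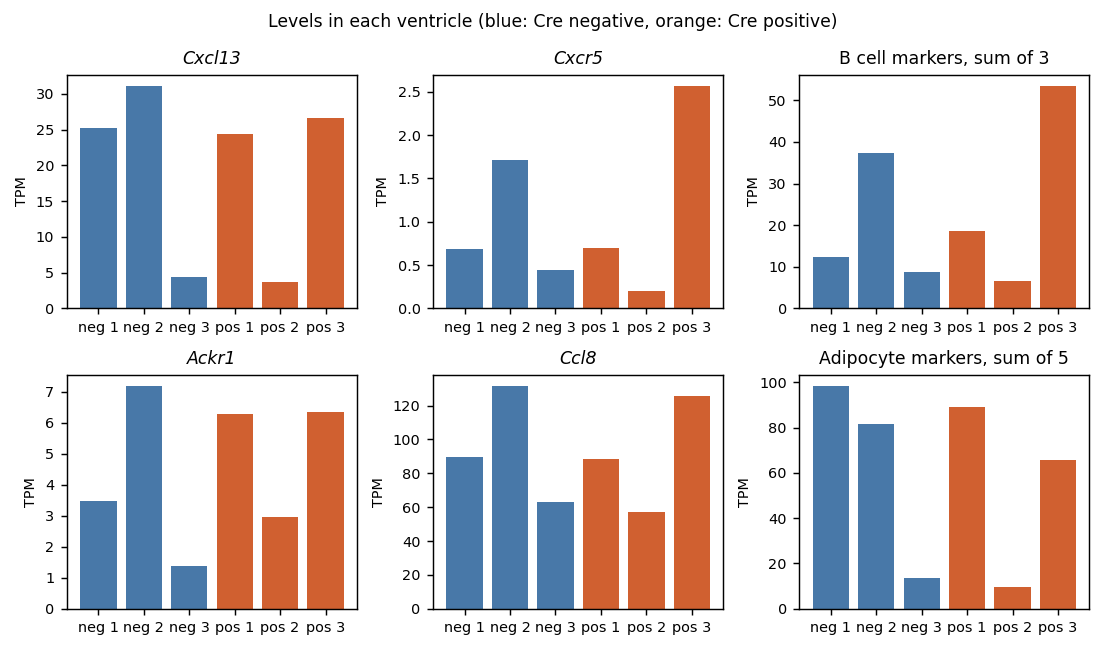
The plot of levels in each ventricle gives TPM from 0 for *Cxcl13*, *Cxcr5*, *Ackr1* and *Ccl8* and the summed TPM of the B cell and adipocyte markers, with Cre negative ventricles in blue and Cre positive ones in orange. In all 6 panels Cre negative replicate 3 and Cre positive replicate 2 are the lowest bars, with 4.36 and 3.66 TPM of *Cxcl13* beside 24.4 to 31.1 in the other ventricles.

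The leading homeostatic ligand was abundant and steady. *Cxcl12*, which retains progenitors and lymphocytes through *Cxcr4*, was second in level among the ligands of the symbol rule, with a mean of 155 TPM. Its normalized counts of 3879, 3317 and 3485 in the Cre negative and 3234, 3187 and 3932 in the Cre positive ventricles differed by at most 1.23-fold, with a log2 fold change of −0.04 (standard error 0.12, 95% interval −0.32 to 0.23). *Cxcl14*, a stromal ligand, had 343, 262 and 279 against 364, 193 and 297 (log2 fold change −0.05, standard error 0.23). *Ccl25*, which draws lymphocytes to thymus and gut, ranged from 16.5 to 22.6 normalized counts (log2 fold change −0.02). The slightly negative signs of these 3 ligands turned positive when TPM values were fitted, where they stayed below the median gene. *Cxcr4*, the receptor of *Cxcl12*, had 233, 446 and 558 normalized counts against 404, 501 and 544, with Cre negative replicate 1 the lowest, a log2 fold change of 0.22 (standard error 0.29) and overlapping groups. *Ccr7*, which guides lymphocytes and dendritic cells to lymph nodes, ranged from 13.8 to 32.2 normalized counts.

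**Figure D4:**
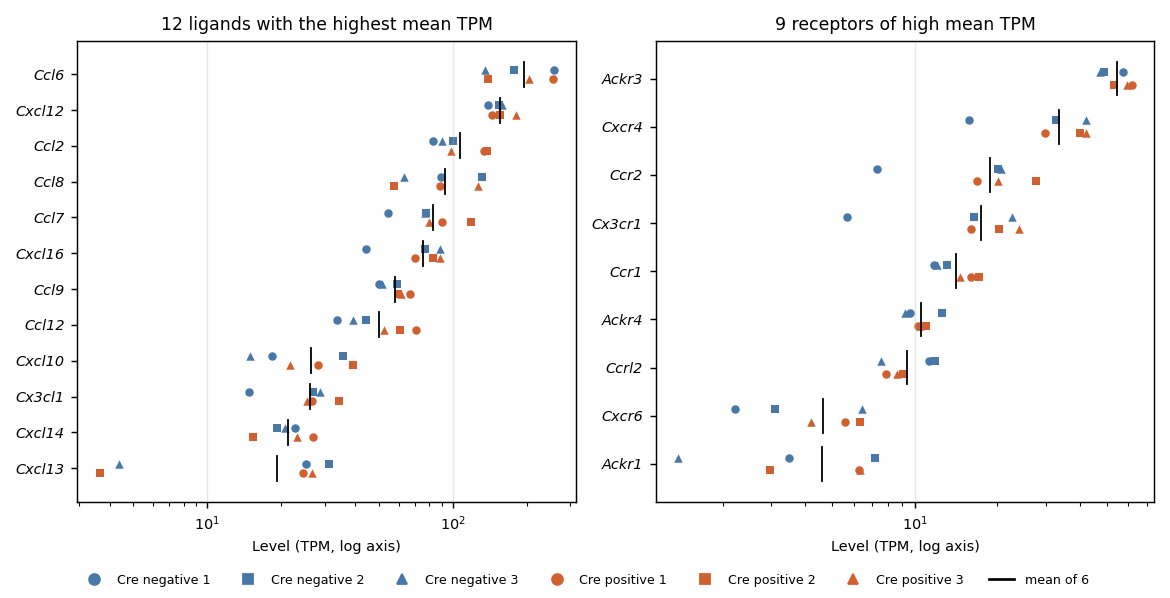
The plot of levels shows the 12 ligands (left) with the highest mean TPM and 9 receptors of high mean TPM (right) on a log axis, with one marker per ventricle, Cre negative in blue and Cre positive in orange, and a black line at the mean of 6. *Ccl6*, *Cxcl12* and *Ccl2* lead the ligands of the symbol rule at 194, 155 and 107 TPM and *Ackr3* leads the receptors at 54.6 TPM.

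The order of levels put a few genes far ahead. *Ccl6*, *Cxcl12*, *Ccl2*, *Ccl8* and *Ccl7* together held 61.6% to 70.2% of the TPM of the 28 ligands of the symbol rule in each ventricle, a sum that leaves out *Pf4* and *Ccl21a*, with means of 235 and 102.5 TPM. Neighbours in that order changed places, *Ccl6* being first in 4 ventricles and *Cxcl12* in 2, with *Ccl2* next in 3 ventricles and *Ccl8* in the other 3. Among receptors *Ackr3* was first and *Cxcr4* next in all 6 ventricles, with mean levels of 54.6 and 33.6 TPM. *Ccr2*, *Cx3cr1* and *Ccr1* were at 18.8, 17.5 and 14.2 TPM and changed places among ventricles, and the neutrophil, T cell and B cell receptors were each below 5 TPM on average.

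Atypical receptors had differences of both signs. Of 5, 2 had a log2 fold change above 0, with a median of −0.09. *Ackr3*, which scavenges *Cxcl12*, had normalized counts of 983, 761 and 728 in the Cre negative and 950.4, 756 and 873 in the Cre positive ventricles. *Ackr4*, a scavenger of homeostatic CC ligands, had 176, 204 and 149 against 165, 167 and 163. *Ccrl2*, which binds chemerin rather than moving cells by itself, had 197, 184 and 109.7 against 124, 124 and 124, so that the Cre positive ventricles were nearly equal and lay inside the Cre negative range. Their log2 fold changes were 0.06 (standard error 0.14), −0.09 (standard error 0.15) and −0.40 (standard error 0.22), and that of *Ackr4* turned to 0.03 with TPM values. *Ackr2*, a scavenger of inflammatory CC ligands, ranged from 84.9 to 119 normalized counts, with a log2 fold change of −0.20 (standard error 0.18).

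The median log2 fold change was 0.15 over the 41 members, 0.11 over the 25 ligands and 0.18 over the 16 receptors, beside 0.006 over all 13817 genes. Values above 0 were found for 29 of 41 members (70.7%), against 51.2% of all genes. Cre negative replicate 1 was the lowest of the 6 ventricles for 18 of 41 members (43.9%), against 32.1% of all genes, and the highest for 7 (17.1%), against 30.8%. Without that ventricle the median was 0.07 for ligands and −0.02 for receptors. Among ligands the sign then turned negative for *Ccl3*, *Ccl5*, *Cx3cl1*, *Ccl11*, *Ccl17*, *Ccl22* and *Cxcl16* and positive for *Ccl6*, *Cxcl12* and *Cxcl14*. The ligand median was also low without Cre negative replicate 3, at 0.06, and without Cre positive replicate 3, at 0.02. The part of any single ventricle in the share above 0 was not tested. The within-group SD of log2 values had a median of 0.52 in Cre negative and 0.29 in Cre positive ventricles for members, against 0.19 and 0.13 for all genes, so the typical member varied more within a genotype than the typical gene did. Genes were not matched by count level, and low counts add counting noise to such an SD. Cre positive replicate 1 was the highest for 11 members (26.8%), against 11.8% of all genes, among them *Cxcl2*, *Cxcl3*, *Cxcl5*, *Ccl2* and *Ccl12*.

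**Figure D5:**
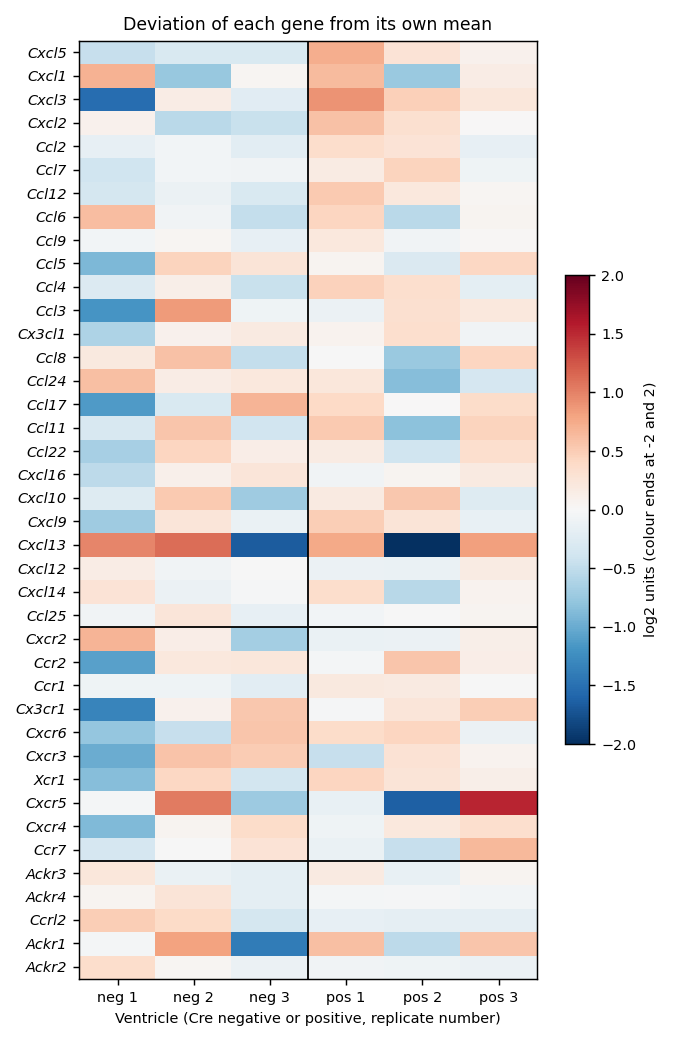
The plot of deviations has one row for each of 40 tested members and one column per ventricle, and colours each value by its log2 distance from the mean of the gene over 6 ventricles, red above and blue below. The first column, Cre negative replicate 1, is the lowest for *Ccr2*, *Cx3cr1* and *Cxcr4*, and *Cxcl13*, *Cxcr5* and *Ackr1* are blue in Cre negative replicate 3 and Cre positive replicate 2.

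The remaining 9 members were near the floor of detection and did not pass the filter on low counts. These were the ligands *Xcl1*, *Cxcl17* and *Ccl28* and the receptors *Cxcr1*, *Ccr3*, *Ccr4*, *Ccr6*, *Ccr9* and *Ccr10*. The highest estimated count of any of them in one ventricle was 12, for *Ccr6*, and *Ccr4* had a single count in Cre positive replicate 3 and 0 elsewhere. No difference was detectable for them at this depth. Reads shared with related genes can blur some members, since estimated counts were not whole in every ventricle for *Cxcl16* and *Cxcr2*, in 4 ventricles for *Ccr2*, in 3 for *Xcr1* and in 2 for *Ccl9*.

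Among 64 other genes of chemokine signalling, 63 were tested. In edgeR's test 0 passed after adjustment, and 3 had an unadjusted p under 0.05 (4.76%, against 5.83% of all genes). *Il1b*, a cytokine that induces many of the inflammatory ligands, had normalized counts of 30.6, 29.4 and 47.6 in the Cre negative and 60.7, 70.1 and 105 in the Cre positive ventricles, without overlap, and a log2 fold change of 1.13 (standard error 0.31). *Rgs16*, a brake on G protein signalling, also did not overlap, with 92.9, 109 and 127 against 185, 149.5 and 179 (log2 fold change 0.64, standard error 0.17). *Rgs2*, another such brake, overlapped, with a log2 fold change of −0.36 (standard error 0.15). Groups also did not overlap, in the higher direction, for the G protein subunit *Gng12* and the kinase *Jak2*, and in the lower direction for *Ccl27a*. These 5 genes without overlap are 7.94% of the 63, against 14.4% of all genes, so neither count is above its background. The chemokines outside the symbol rule had log2 fold changes of −0.22 for *Pf4*, −0.54 for *Ppbp*, 0.34 for *Ccl21a* and −0.42 for *Ccl27a*. Of the 63 genes, 46 had a log2 fold change above 0 (73%, against 51.2% of all genes), with a median of 0.09, and 40 were lowest in Cre negative replicate 1 (63.5%, against 32.1%). Without that ventricle 31 of 63 were above 0 and the median was −0.005.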

How the data were processed

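Left ventricles of 3 Cre positive and 3 Cre negative mice were profiled by bulk RNA sequencing from TRIzol extracts, with libraries made by BGI Americas. The authors deposited, per ventricle, an estimated count, FPKM and TPM of 17556 genes, and the submitters' processing notes name Bowtie2 2.2.5, RSEM 1.2.12 and GRCm38.p6. The deposited estimated counts were not normalized and 11.46% of them were not whole. The deposited TPM values were corrected for gene length by the authors and sum to 1000000 per ventricle, and the deposited FPKM values were not used. A DESeq2 comparison that the authors deposited, with its fold changes and p-values, was not used.

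Rounded counts were fitted by edgeR 4.0.16 under R 4.3.3 (TMM scaling, filterByExpr at min.count 10 and min.total.count 15, quasi-likelihood test with no covariate, two-sided), with Benjamini-Hochberg adjustment over the 13817 genes tested and a threshold of 0.05. Deviations and principal components used log2 CPM with a prior count of 2. Pairs of ventricles differed by 8.07 to 68.3 times sampling noise (chi-square per gene), so none is a copy of another. The labels call the replicates separate mice only through their titles, so p-values measure the spread between these 6 samples. The script was tested on simulated data. Alternatives were size factors of DESeq2 (RLE), no filter on low counts, DESeq2 1.42.0, limma 3.58.1 on log2(TPM + 1) and log2(TPM + 0.1), a replicate block, and each ventricle left out in turn.

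Members and gene lists were chosen with earlier results of these data known. Values per ventricle are given for the 12 ligands and 10 receptors with the highest mean TPM, members with an unadjusted p under 0.05, members whose groups did not overlap, and the 6 tested members with the widest range. The values of 1 member, counted among those tested, and of 1 marker gene are not reported here. Python 3.11.15 with scipy 1.17.1, pandas 2.3.3 and matplotlib 3.10.9 was used for exact permutation tests and figures. Gene positions and promoters are those of RefSeq on GRCm38.p6.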

Additional observations from a re-analysis of the deposited data

How the results depend on the processing

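No member passed an adjusted p of 0.05 in any setting, so no call on a member could be lost, and *Cxcl5* and *Ccl12* had an unadjusted p under 0.05 in every setting, always higher in Cre positive ventricles. *Ccr1* did not keep it with the replicate block, with DESeq2, without Cre negative replicate 2 or 3, or without Cre positive replicate 1 or 2. The number of members with an unadjusted p under 0.05 was 3, and became 5 with the replicate block (*Ccl12*, *Ccl2*, *Ccl24*, *Ccl7* and *Cxcl5*), 8 with limma on log2(TPM + 1) and 8 on log2(TPM + 0.1) (*Ccl12*, *Ccl2*, *Ccl4*, *Ccl7*, *Ccr1*, *Cxcl2*, *Cxcl3* and *Cxcl5* in both), and 2 to 5 with a ventricle left out. With no filter on low counts 4 of 50 members had such a p, against 5.41% of all genes. The share of all genes with such a p moved too, from 5.83% to 8.81% with the block, to 7.23% and 7.03% with limma and to between 2.68% and 9.61% with a ventricle left out. Over all genes the number past an adjusted p of 0.05 was 1, and became 0 with the replicate block, 2 with limma on log2(TPM + 1), 2 on log2(TPM + 0.1), 5 with DESeq2, and 0 to 2 with a ventricle left out, with 0 without Cre negative replicate 3, Cre positive replicate 1 or Cre positive replicate 3 and 2 without Cre negative replicate 1. *Gbp2b*, the gene called with all ventricles, was also lost without Cre positive replicate 2, where *Rpl34-ps1* was the one call. Titles share replicate numbers, but only the pair numbered 1 deviated together (r across genes = 0.354, 0.0726 and −0.0318 for numbers 1, 2 and 3). Unlike numbers gave r from −0.368 to 0.354, so the numbers were not taken to pair the mice.

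With a ventricle left out, the median log2 fold change ran from 0.0228 to 0.297 for ligands and from −0.0168 to 0.235 for receptors, the lowest value for receptors being that without Cre negative replicate 1. Of 40 tested members, 17 kept one sign in every setting and 23 turned in a fit that left out a ventricle. Their log2 fold changes then ran from −0.347 to 0.435 for *Cxcl1*, −0.314 to 0.701 for *Ccl3*, −0.276 to 0.3 for *Ccl5*, −0.311 to 0.288 for *Ccl6*, −0.0214 to 0.339 for *Cx3cl1*, −0.0874 to 0.561 for *Ccl11*, −0.496 to 0.0817 for *Ccl8*, −0.0171 to 1.1 for *Ccl17*, −0.267 to 0.297 for *Ccl22*, −0.118 to 0.236 for *Cxcl16*, −0.755 to 0.225 for *Cxcl13*, −0.151 to 0.0171 for *Cxcl12*, −0.267 to 0.167 for *Cxcl14* and −0.114 to 0.127 for *Ccl25*. For receptors they ran from −0.479 to 0.183 for *Cxcr2*, −0.0798 to 0.699 for *Cx3cr1*, −0.585 to 0.0406 for *Cxcr3*, −1.15 to 0.889 for *Cxcr5*, −0.321 to 0.337 for *Ccr7*, −0.0608 to 0.503 for *Cxcr4*, −0.163 to 0.938 for *Ackr1*, −0.0189 to 0.203 for *Ackr3* and −0.205 to 0.0253 for *Ackr4*. With limma on log2(TPM + 1) and log2(TPM + 0.1) the sign also turned for *Ccl6* (0.0755 and 0.0759), *Cxcl12* (0.0844 and 0.0848), *Cxcl14* (0.0263 and 0.0258), *Ccl25* (0.0554 and 0.0787) and *Ackr4* (0.0279 and 0.0313), with the second also for *Cxcr3* (0.0566) and *Cxcr5* (−0.0897), and with the replicate block for *Cxcr5* (−0.0689). The median of all genes was 0.109 and 0.125 in these TPM fits, so these members were below it. The causes were not tested. The 9 members under the filter on low counts were fitted only without the filter and by DESeq2, and their counts were few.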
